A study of Mus musculus with 5 samples.

Results

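The genes described here mark the thalamus and the globus pallidus, the grey matter that lies next to the striatum, and they were measured in RNA of dissected striatum. They are 10 genes taken as a gauge of neighbouring tissue: Slc17a6, Tcf7l2, Lef1, Prkcd, Rora, Zic1, Tnnt1 and Ramp3 for the thalamus, and Lhx6 and Nkx2-1 for the pallidum. Members were found by their gene symbol in the annotation of the array's probes. Of the 10 genes, 9 had a probe, 1 each, out of 17778 named genes and 26423 probes in all. No probe carried the symbol of Nkx2-1 or an unambiguous synonym of it, so it has no value here.

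The study compared 2 groups of male FVB mice at 12 months of age. All 5 mice carried a Huntington's disease transgene, exon 1 of human HTT with an expanded CAG repeat joined to GFP, and a human ubiquitin promoter drove it. The 2 mice of the group called HD carried this transgene alone, and the labels record weak motor function for them. The 3 mice of the group called HD_miR196a also carried a precursor of the microRNA miR-196a under a human ubiquitin promoter, and the labels record better motor function. Both promoters are active in most cell types, so neither transgene is confined to striatal neurons. No mouse without the Huntington's disease transgene was analysed here.

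The thalamus relays sensory and motor signals, and its projection neurons release glutamate loaded into vesicles by the transporter VGLUT2, the product of Slc17a6. Cortical projection neurons mostly use VGLUT1, the product of Slc17a7, and the projection neurons of striatum and pallidum release GABA, so neither transporter is typical of those projection neurons. The pallidum arises from the medial ganglionic eminence, where Nkx2-1 switches on Lhx6, and many striatal and cortical interneurons share this origin and keep Lhx6. For this reason Lhx6 does not separate pallidal neurons from interneurons.

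The transgene that distinguishes the groups gives rise to the mature miRNA below, shown with its seed (bases 2 to 8) in capitals, since the seed is the part that pairs with target mRNAs. RefSeq lists the same mature sequence from Mir196a-1 and from Mir196a-2 in build GRCm38.p6, and the sources used here do not say which precursor the transgene carries.
mmu-miR-196a-5p: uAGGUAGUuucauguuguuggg

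Promoters are shown for Slc17a6 and Tcf7l2, because the levels of both varied widely from mouse to mouse. Each line gives the 250 bases upstream of the most 5′ start in the RefSeq promoter table (GRCm38.p6), with CpG dinucleotides in capitals. The window of Slc17a6 is chr7:51621580-51621829 on the + strand, and that of Tcf7l2 is chr19:55741560-55741809 on the + strand.
Slc17a6: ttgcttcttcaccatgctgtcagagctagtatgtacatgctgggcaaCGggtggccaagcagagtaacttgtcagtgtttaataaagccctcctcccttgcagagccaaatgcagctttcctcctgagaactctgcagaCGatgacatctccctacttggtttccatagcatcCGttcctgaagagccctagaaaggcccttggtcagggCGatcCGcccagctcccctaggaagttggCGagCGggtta
Tcf7l2: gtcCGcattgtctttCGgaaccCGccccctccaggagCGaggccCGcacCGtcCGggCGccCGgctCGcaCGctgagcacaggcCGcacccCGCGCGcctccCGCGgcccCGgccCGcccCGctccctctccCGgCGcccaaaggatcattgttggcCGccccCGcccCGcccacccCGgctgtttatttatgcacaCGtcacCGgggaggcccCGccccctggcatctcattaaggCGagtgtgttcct

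The promoters of these genes differ in composition. The Slc17a6 window held 7 CpG and was 53.2% G or C, close to the median of 6 CpG and 52.4% over all 32851 windows of the table. The Tcf7l2 window held 30 CpG and was 72.8% G or C, and 94.1% of windows held fewer CpG. Among the other members, Rora and Zic1 had 26 and 27 CpG, and Tnnt1 had 6. Both strands were searched for ATCAAAG, the core bound by TCF and LEF factors such as the products of Tcf7l2 and Lef1, for TAATTA of LIM homeodomain proteins, for CAAGTG of NKX2-1 and for AGGTCA of the ROR receptors. Neither printed window held any of these letters, which occur in 3.21%, 4.84%, 11.6% and 14.0% of all windows. Among the other windows of the members, that of a further Slc17a6 start had 1 TAATTA, 81 bases before the start. CAAGTG stood in 2 overlapping Lef1 windows, 10 and 36 bases before their starts.

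The deposited intensities had medians of 160.0 to 185.6 per mouse and were quantile-normalized here, so each level below is a log2 intensity. A level can be compared between mice for 1 probe, and not between probes. Signal near background was gauged with 543 olfactory receptor probes, whose genes are seldom transcribed in brain. Their 95th percentile was 8.31, and 60.4% of all probes lay below it. Of the 9 members, 6 had a mean above this level: Slc17a6, Tcf7l2, Prkcd, Rora, Zic1 and Lhx6. Lef1, Tnnt1 and Ramp3 were below it, so 5 of the 8 thalamic genes had a mean above it. A mean above the gauge shows signal and not the tissue it came from. Genes of striatal projection neurons were well measured, with 16 of 21 above that level, among them the enkephalin precursor Penk at 14.73 to 15.25 and the dopamine receptor Drd1 at 12.69 to 13.11 on its brighter probe. The Drd2 probe, chosen after its values were seen, stayed near the floor in all mice, at 0 to 2.04. Of the 21 striatal genes, 15 had a higher mean in HD_miR196a mice and 6 a lower one. None had a limma adjusted p under 0.05 over all probes. The groups did not overlap for 7 higher in HD_miR196a mice, Penk and Drd1 among them, and for 1 lower. The shares of all probes were 9.96% and 10.3%.

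None of the 9 members was called different between HD_miR196a and HD mice by limma at an adjusted p under 0.05 over all probes, and 0% of the 26423 probes were called. At an unadjusted p under 0.05 there was 1 member, Tnnt1, against 4.16% of all probes. The groups did not overlap for this same 1 of 9 members, against 20.3% of all probes, 9.96% higher and 10.3% lower in HD_miR196a mice. By level, 5 members had a higher mean in HD_miR196a mice and 4 a lower one, with a median difference of 0.02, beside 8688 of 17778 named genes (48.9%) higher and a median of -0.0042 over all of them. The spread inside the groups was the larger quantity for most members. For 7 of 9 members the range inside each group exceeded the difference between the group means, which was so for 55.7% of all probes.

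**Figure D1:**
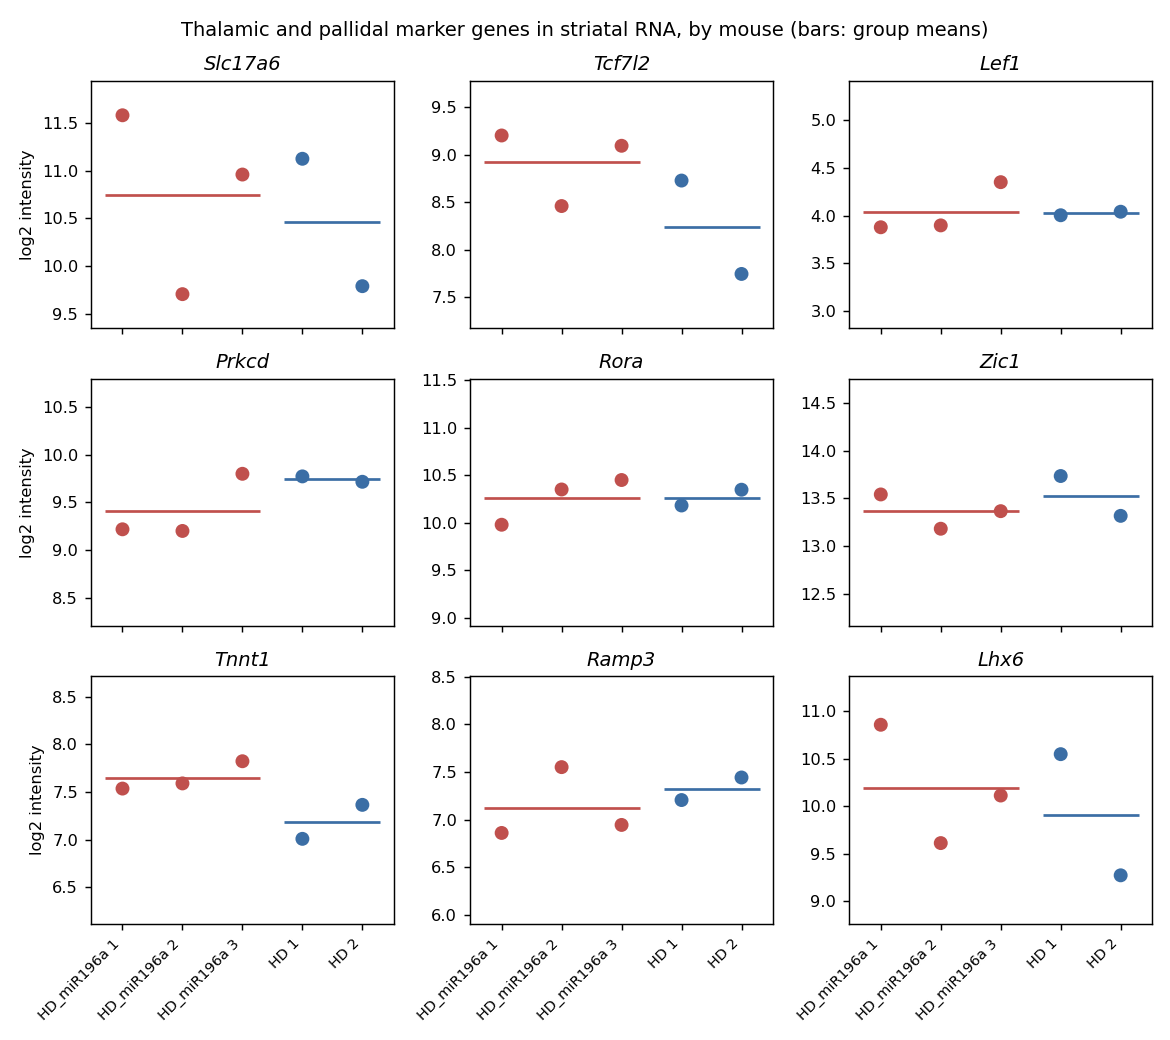
Log2 intensity of each measured member in each of the 5 mice, after quantile normalization, with HD_miR196a mice in red, HD mice in blue and horizontal bars for group means; each vertical axis spans the same number of log2 units but not the same levels. Slc17a6 ran from 9.70 to 11.58 and Lhx6 from 9.27 to 10.86 with both groups spread over the range, and Tnnt1 is the only panel in which the groups did not overlap.

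Slc17a6, the VGLUT2 gene, varied the most of all members. Its level was 11.58, 9.70 and 10.96 in HD_miR196a mice 1, 2 and 3, and 11.13 and 9.79 in HD mice 1 and 2. HD_miR196a mouse 1 was the highest and HD_miR196a mouse 2 the lowest, a 3.68-fold range inside 1 group, and the HD mice lay between them, 2.53-fold apart. The group means were 10.75 ± 0.96 (SD, n = 3) and 10.46 ± 0.95 (SD, n = 2), a difference of 0.29 ± 0.70 (SE) with a 95% interval from -1.53 to 2.11 (limma adjusted p = 0.993). Its pooled SD within groups, 0.95, was exceeded by 0.689% of the probes above the median level, whose median SD was 0.13. Single mice set the direction of the difference. It was -0.13 with HD_miR196a mouse 1 left out, -0.37 when HD mouse 2 was dropped and 0.96 when HD mouse 1 was. In bulk RNA, more cells of a type and more RNA per cell cannot be told apart.

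Of the other vesicular glutamate transporters, one ran in nearly the opposite order of mice. Slc17a7, the VGLUT1 gene of cortical neurons, was at 8.47, 11.76 and 11.05 in HD_miR196a mice 1 to 3 and at 8.82 and 11.87 in the HD mice. It was thus lowest in HD_miR196a mouse 1 and HD mouse 1, the mice with the most Slc17a6, and highest in HD mouse 2 and HD_miR196a mouse 2, the mice with the least. HD_miR196a mouse 3 was the middle mouse for both. Slc17a8, the VGLUT3 gene used by cholinergic interneurons, was at 7.68, 7.18 and 7.60 in HD_miR196a mice and 7.71 and 7.47 in HD mice. All these values lay below the olfactory receptor gauge, with the same 3 mice highest as for Slc17a6. The group differences were 0.08 ± 1.37 (SE) for Slc17a7 and -0.10 ± 0.19 for Slc17a8, and neither was called.

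Tcf7l2 encodes an HMG-box transcription factor that acts with beta-catenin in Wnt signalling and marks neurons of the thalamus and habenula. It measured 9.20, 8.46 and 9.09 in HD_miR196a mice and 8.73 and 7.75 in HD mice. HD mouse 2, at 7.75, was far below the others and under the olfactory receptor gauge of 8.31. HD_miR196a mouse 2 lay between the HD mice, so the groups overlapped. The difference was 0.68 ± 0.38 (SE), with a 95% interval from -0.32 to 1.69 (limma adjusted p = 0.979), the largest of the members. It kept its sign with any 1 mouse left out, 0.19 when HD mouse 2 was dropped and 1.17 when HD mouse 1 was. The mice with high Slc17a6, HD_miR196a mice 1 and 3 and HD mouse 1, were also the 3 highest for Tcf7l2.

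Lef1, a relative of Tcf7l2 that marks thalamic neurons in adult brain, was near the bottom of the scale in all mice, at 3.88, 3.90 and 4.35 in HD_miR196a mice and 4.004 and 4.04 in HD mice. This is below the olfactory receptor median of 4.98, so the probe gives no usable level of Lef1 and its difference was 0.02 ± 0.18 (SE). Of 22 measured genes of the TCF/LEF family and the Wnt response, both of these members included, 15 had a higher mean in HD_miR196a mice and 7 a lower one, 0 were called, and the median difference was 0.02. The co-activator beta-catenin, Ctnnb1, was at 13.57 to 13.73, and the co-repressor gene Tle4 at 12.85 to 13.06. Both varied little between mice, unlike Tcf7l2. Sp5, a Wnt target and the member of this list with the smallest p, was dim at 3.09 to 5.29 and differed by -1.30 ± 0.59 (adjusted p = 0.979).

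Rora and Zic1 are transcription factors of the thalamus that are expressed elsewhere in the forebrain as well. Rora, an orphan nuclear receptor, measured 9.98, 10.35 and 10.45 in HD_miR196a mice and 10.18 and 10.35 in HD mice. All values lay within 0.47 of each other, the narrowest range of the members, and the HD mice fell inside the HD_miR196a range. The group difference was -0.0050 ± 0.18 (SE), with a 95% interval from -0.47 to 0.46. Its relative Rorb, a gene of cortical layer 4 neurons among others, was dim at 6.10 to 6.82.

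Zic1, a zinc finger factor also found in septum, gave a bright signal in each mouse, at 13.54, 13.18 and 13.37 in HD_miR196a mice and 13.73 and 13.32 in HD mice. HD mouse 1 was highest and HD_miR196a mouse 2 lowest, and the groups overlapped. The difference was -0.16 ± 0.18 (SE), with a 95% interval from -0.64 to 0.32, and it became 0.04 without HD mouse 1. The same 3 mice were highest as for Slc17a6 and Tcf7l2, over a range of 0.55 in place of 1.88 and 1.46. Its relative Zic2 was lower in every HD_miR196a mouse, at 8.56, 8.51 and 8.41 against 8.96 and 8.86, a difference of -0.42 ± 0.10 that was not called (limma adjusted p = 0.979). Zic4, transcribed from the neighbouring locus, was at 7.13 to 7.59 with overlapping groups.

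Prkcd, the delta isoform of protein kinase C, is abundant in sensory relay nuclei of the thalamus and also marks cells of the lateral septum and central amygdala. It measured 9.22, 9.20 and 9.80 in HD_miR196a mice and 9.77 and 9.72 in HD mice. HD_miR196a mice 1 and 2 were low, while HD_miR196a mouse 3 was level with the HD mice. The difference was -0.34 ± 0.22 (SE), with a 95% interval from -0.91 to 0.24 (limma adjusted p = 0.979), and it was negative with any 1 mouse left out, from -0.54 to -0.24. This order of mice was unlike that of Slc17a6, since HD mouse 2 was high for Prkcd. Of 8 measured genes of the kinase family, 5 had a higher mean in HD_miR196a mice and 3 a lower one, and 0 were called. The brightest, Prkcb, differed by 0.18 ± 0.23.

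Tnnt1, slow skeletal muscle troponin T, is a contractile protein gene whose mRNA in brain is concentrated in the thalamus. It measured 7.54, 7.59 and 7.82 in HD_miR196a mice and 7.01 and 7.36 in HD mice. Every HD_miR196a mouse was above both HD mice. The means were 7.65 ± 0.15 (SD, n = 3) and 7.19 ± 0.25 (SD, n = 2), a difference of 0.46 ± 0.16 (SE) with a 95% interval from 0.04 to 0.89. Its unadjusted p was 0.038 and its limma adjusted p over all probes 0.979. The difference was positive under all 15 alternatives, in the span of 0.28 (HD mouse 1 left out) to 0.64 (HD mouse 2 left out), and never called. Filters on level and the trend and robust variances cannot change a difference, so those alternatives repeat the main value by construction. The level of Tnnt1 was below the olfactory receptor gauge in each mouse, and its order of mice was not that of Slc17a6. The cardiac and fast skeletal forms, Tnnt2 and Tnnt3, differed by -0.19 ± 0.10 and 0.05 ± 0.16.

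Ramp3 encodes a small membrane protein that joins calcitonin-family receptors and sets which peptide they bind. It measured 6.86, 7.55 and 6.94 in HD_miR196a mice and 7.20 and 7.44 in HD mice, all below the olfactory receptor gauge. HD_miR196a mouse 2 and HD mouse 2, the mice with the least Slc17a6, had the most Ramp3. The difference was -0.21 ± 0.25 (SE), with a 95% interval from -0.86 to 0.44. The receptors to which it binds differed from each other in how much they varied. Calcr, the calcitonin receptor, was at 9.49, 8.25 and 8.63 in HD_miR196a mice and 9.85 and 7.01 in HD mice, a 7.16-fold range, with HD mouse 1 and HD_miR196a mouse 1 highest. The calcitonin receptor-like gene Calcrl was at 10.20 to 10.47 in all mice.

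Lhx6, the pallidal member with a probe, is a LIM homeodomain factor of neurons born in the medial ganglionic eminence. It measured 10.86, 9.61 and 10.11 in HD_miR196a mice and 10.55 and 9.27 in HD mice. HD_miR196a mouse 1 and HD mouse 1 were high, HD mouse 2 and HD_miR196a mouse 2 low, and the groups overlapped over most of their ranges. The means were 10.19 ± 0.63 (SD, n = 3) and 9.91 ± 0.90 (SD, n = 2), a difference of 0.28 ± 0.54 (SE) with a 95% interval from -1.12 to 1.68 (limma adjusted p = 0.989). It was 0.92 with HD mouse 1 left out, -0.35 when HD mouse 2 was dropped and -0.05 when HD_miR196a mouse 1 was. The gap of 1.27 between the HD mice was exceeded by 1.07% of the probes above the median level. That share was 0.954% for Slc17a6 and 1.85% for Tcf7l2, and these genes had the widest HD gaps of the members. For the other members it ran from 13.3% (Zic1) to 86.0% (Lef1).

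**Figure D2:**
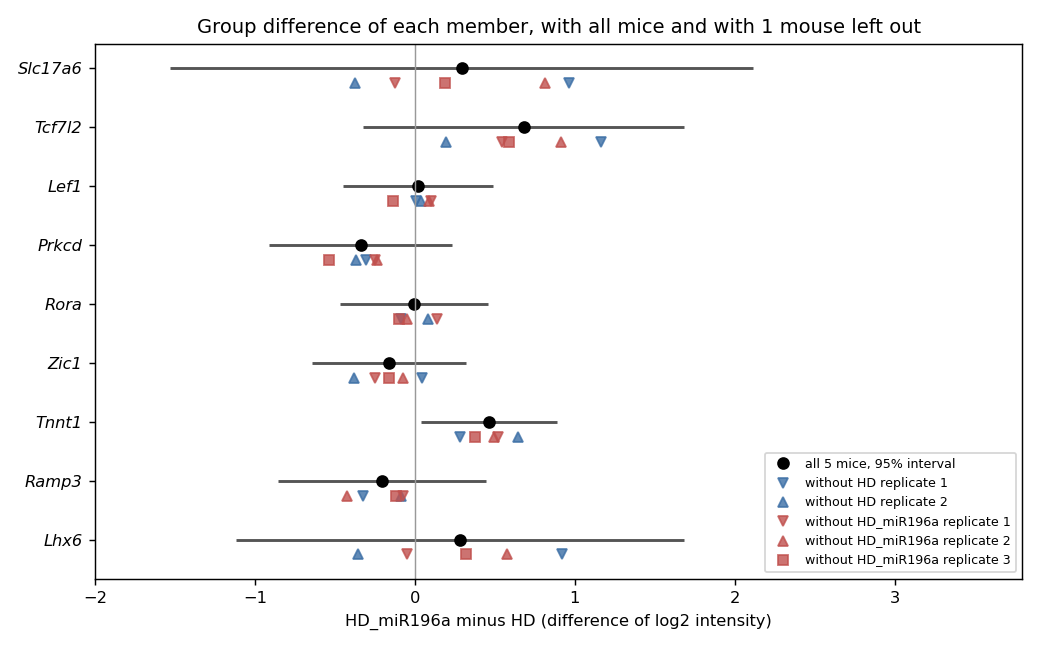
Difference of mean log2 intensity, HD_miR196a minus HD, for each measured member: black points and lines give all 5 mice with limma's 95% interval, and coloured marks give the same difference with 1 mouse left out (blue, an HD mouse; red, an HD_miR196a mouse). The marks of Slc17a6 spread from -0.37 to 0.96 and those of Lhx6 from -0.35 to 0.92, on both sides of 0, while those of Tnnt1 stay between 0.28 and 0.64.

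The LIM homeobox gene Lhx8, a close relative of Lhx6 needed for forebrain cholinergic neurons, had the same order of mice. Its brighter probe was at 10.19, 8.73 and 9.47 in HD_miR196a mice and 10.17 and 8.02 in HD mice, and the dimmer probe at 9.46, 8.35, 8.90, 9.39 and 7.76 in the same sequence of mice. Both probes were high in mouse 1 of each group and lowest in HD mouse 2. The group differences were 0.36 ± 0.78 (SE) and 0.33 ± 0.59. Lhx2, a relative expressed in cortical progenitors and neurons, ran the other way, with its lowest values of 10.52 and 10.26 in mouse 1 of the HD_miR196a and HD groups.

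Further markers of pallidum and basal forebrain were measured for 15 of 20 genes listed, and 12 had a higher mean in HD_miR196a mice and 3 a lower one. None was called, the median difference was 0.06, and the groups did not overlap for 2, Npas1 and Kcns3, both dim and higher in HD_miR196a mice, against 9.96% of all probes in that direction. Ngfr, the p75 receptor of basal forebrain cholinergic neurons, was at 10.96, 10.05 and 10.68 in HD_miR196a mice and 11.01 and 9.56 in HD mice. The choline transporter gene Slc5a7, which striatal cholinergic interneurons share, was at 10.15, 9.48, 10.07, 10.26 and 9.44 in the same sequence. As with Slc17a6, both genes were lower in mouse 2 of each group than in the other 3 mice, and Dlk1 did likewise at 9.94, 8.83, 9.56, 10.41 and 8.83. Not all genes of the list did: HD mouse 1 was above HD mouse 2 for 10 of the 15. Parvalbumin, Pvalb, chosen after its values were seen, was at 9.50, 9.25, 9.68, 9.39 and 9.65, with HD mouse 2 above HD mouse 1. Somatostatin, Sst, of striatal and cortical interneurons, was lowest in mouse 1 of each group, at 14.76 and 14.74 against 15.10 to 15.21.

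Further thalamic and habenular markers were measured for 19 of 20 genes listed, 12 higher and 7 lower in HD_miR196a mice, with 0 called and a median difference of 0.13. Non-overlapping groups were seen for 2 genes, both dim and lower in HD_miR196a mice (10.3% of all probes): Rgs16, and Grid2ip on its brightest probe, the latter chosen after its values were seen. Calb2, calretinin, a calcium-binding protein of midline thalamus and of many interneurons, was at 11.86, 9.65 and 10.50 in HD_miR196a mice and 11.005 and 8.82 in HD mice. Its other probe gave 11.81, 9.91, 10.54, 11.04 and 9.16, the same order of mice. Gbx2, a homeobox gene of developing thalamus and of striatal cholinergic interneurons, chosen after its values were seen, was at 9.31, 8.30, 8.82, 9.05 and 7.71. Both genes were thus lowest in HD mouse 2 and highest in HD_miR196a mouse 1, as Tcf7l2 was. Other genes of the list did not share that order. Pdp1 was highest in HD mouse 2, at 10.42, and lowest in HD mouse 1, at 9.81. Nwd2, chosen after its values were seen, was lowest in mouse 1 of the HD_miR196a and HD groups, at 8.17 and 8.28. The T-type calcium channel gene Cacna1g, at 9.15 to 9.88, and Amotl1, at 11.12 to 11.79, varied less. Shox2 and Slitrk6, chosen after their values were seen, were at or near the floor in every mouse, so those thalamic markers have no usable level.

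**Figure D3:**
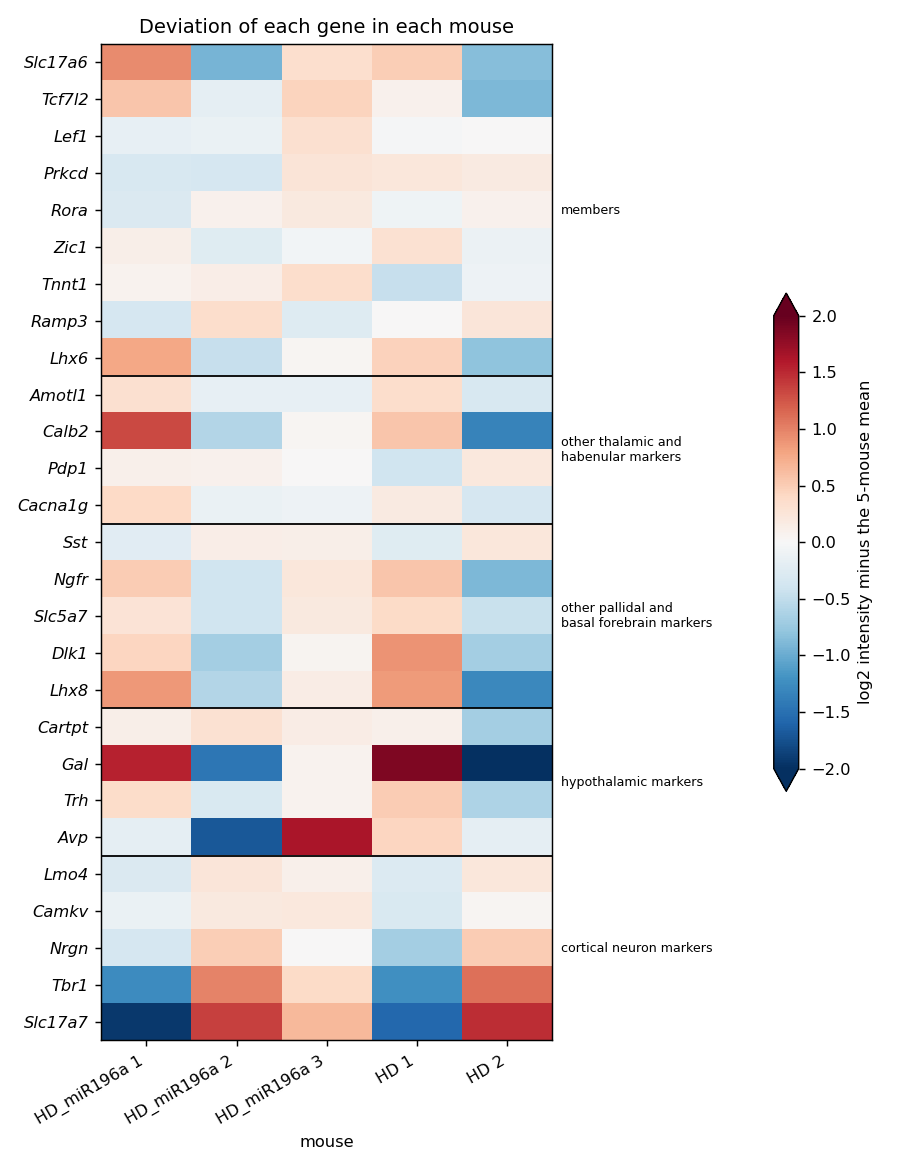
Log2 intensity of each gene in each mouse minus its mean over the 5 mice, for the 9 members, for the 4 genes with the highest mean level in each of 4 marker lists, and for Lhx8 and Slc17a7; red is above and blue below the mean, and the colour scale ends at 2 log2 units in each direction. Slc17a6, Tcf7l2, Lhx6, Calb2, Ngfr and Lhx8 are red in HD_miR196a mouse 1 and HD mouse 1 and blue in mouse 2 of each group, and Tbr1 and Slc17a7 show the opposite colours.

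Markers of other regions around the striatum also varied across mice, and their part in the members' values was not tested. Hypothalamic markers, measured for 12 of 12 genes with 5 above the olfactory receptor gauge, had list means of 8.10, 6.98 and 8.20 in HD_miR196a mice and 8.18 and 6.95 in HD mice. Their summed intensity was 10738 to 19480.5 in HD_miR196a mice and 6426 to 20765 in HD mice, and none of them was at the floor. Galanin, Gal, was at 12.95, 9.96, 11.47, 13.28 and 9.37 in HD_miR196a mice 1 to 3 and HD mice 1 and 2, and oxytocin, Oxt, chosen after its values were seen, at 11.09, 7.004, 9.41, 10.13 and 6.73. Both peptide genes were lowest in mouse 2 of each group, as Slc17a6 was. Cartpt, the brightest gene of the list, was at 12.84, 13.03, 12.87, 12.82 and 12.05, highest in HD_miR196a mouse 2, and so did not share that order.

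Cortical neuron markers took the opposite order. For 23 of 24 measured genes, 18 of them above the gauge, the list means were 9.30, 10.62 and 10.44 in HD_miR196a mice and 9.48 and 10.81 in HD mice. The summed intensity was 54930 to 96876 and 52322 to 99618 in the groups, and none was at the floor. Tbr1, a transcription factor of deep cortical layers, was at 11.33, 13.57, 12.97, 11.35 and 13.69 in the same sequence. Mouse 1 of each group was thus low in cortical genes and high in Slc17a6 and Lhx6, while HD_miR196a mouse 3 was the middle mouse for all of these. The cortical list means ranged alike in the 2 groups, so as a covariate they could hardly move a group difference. A fit with that covariate therefore does not test the cortical part. In it the difference of Slc17a6 was 0.27, that of Tcf7l2 0.67 and that of Lhx6 0.26, beside 0.29, 0.68 and 0.28 without it. Without mouse 1 of each group they were 0.55, 1.03 and 0.60, and no member was called in either fit.

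**Figure D4:**
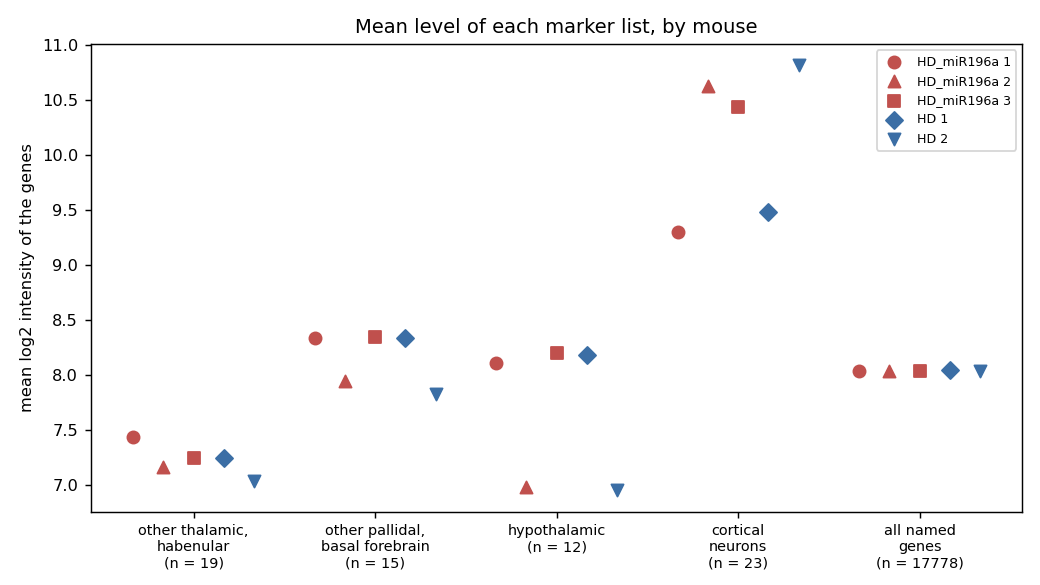
Mean log2 intensity of the brightest probe of each gene in 4 marker lists and over all named genes, by mouse (red, HD_miR196a; blue, HD; one symbol per mouse; n is the number of genes). The hypothalamic list is lowest in HD_miR196a mouse 2 and HD mouse 2 at 6.98 and 6.95, the cortical list is lowest in mouse 1 of each group at 9.30 and 9.48, and the mean of all named genes lies at 8.03 to 8.04 in all mice.

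The members fell into sets by the order of mice, and only the order of Tnnt1 followed the groups. HD_miR196a mice 1 and 3 and HD mouse 1 were the 3 highest for 4 of the 9, Slc17a6, Tcf7l2, Zic1 and Lhx6, and the 3 lowest for 1, Ramp3. For Zic1 this rests on HD_miR196a mouse 3 at 13.37 beside HD mouse 2 at 13.32. How many of all probes share this order was not counted. Prkcd, Rora, Tnnt1 and Lef1 each had another order. This sorting was made after the values were seen, is a description of these 5 mice, and has no test.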

How the data were processed

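Striatal RNA of 5 mice was amplified, labelled with Cy5 and hybridised as the only channel of a mouse array, per the labels' protocols. The deposited values are linear intensities, and the authors combined 2 technical repeats of each mouse, per the labels, so the mouse is the replicate. Some deposited intensities lie below 0. Scanner and scaling method: not given in the sources used here. The number of arrays limits the precision.

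Groups and mouse numbers came from the sample titles. Intensities were quantile-normalized, set to at least 1 and put on the log2 scale. Each of the 26423 probes entered limma's linear model (version 3.58.1, R 4.3.3) with moderated variances, on 3 residual and 1.75 prior degrees of freedom, with two-sided Benjamini-Hochberg adjusted p-values and a threshold of 0.05. Simulated data with added shifts and independent noise served only to check that the fit returned those shifts on average. That check does not give the power of the fit with these mice. Symbols came from the platform's probe table, where 20377 probes had 1 symbol and 6046 none. For the lists, synonyms came from RefSeq names of GRCm38.p6, whose gene coordinates were not used. The brightest probe stood for a gene in counts. All members are named. Further genes could be named if they were among the 4 brightest or 2 smallest p of a list or relatives of members, and not all of these are. Any others are said to be chosen after their values were seen. The members and lists were chosen with earlier results of these data known. An exact permutation test of 3 mice against 2 cannot give a p under 0.1 and was not used. Alternatives were the scaling, the floor, filters on level, array weights, trend and robust variances, a replicate block, a cortical covariate and leaving out each mouse. Nothing in the labels says whether mice were littermates, so p-values measure the spread between these mice. Correlations over 5 mice were not computed.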

Additional observations from a re-analysis of the deposited data

How the results depend on the processing

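No member was called under any alternative at an adjusted p under 0.05. Of 132 member values under alternatives, 116 kept their sign and 16 did not, all of them uncalled in both fits and all of Lef1, Rora, Slc17a6, Lhx6 or Zic1. Filters on level and the trend and robust variances cannot change a difference, so the values under them kept their sign by construction. Raising the floor to the olfactory receptor median changed only Lef1, which it set to 0 by construction. Over the array the count of 0 called probes became 1099 at an unadjusted p under 0.05 (1 member, Tnnt1), 4 with that higher floor (Acot8, Tmeff1 and 2 unnamed probes), 1 above the lower quartile of level (Acot8), 3 with trend and robust settings (Acot8, Serpina9 and Lats2), and 0 to 3 with 1 mouse left out. Without HD mouse 1 these were Pitpnm1, Crot and Lrrc8e, and without HD mouse 2 Rrp36, Phc1 and Sun2. All these genes were chosen after their values were seen, and none is a member. A fit without an HD mouse assumes that the lone one varies like the other group.

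The median difference of the members, 0.02, became -0.20 without scaling, where the median of all probes also shifted by -0.20, and 0.28 among the probes above the median level, where 7 members remained. With 1 mouse left out it ranged from -0.10 to 0.09, and 4 to 6 of the 9 members were higher in HD_miR196a mice. With the mouse number as a replicate block the median difference was -0.10, with 4 of 9 members higher, 0 called and 3 at an unadjusted p under 0.05, as were 2020 of all 26423 probes in that fit. Mice of equal number had deviations from their group means that correlated across probes at 0.236 and 0.17. The deviations of the 2 HD mice mirror each other by construction, so these correlations are not separate checks. Only 2 numbers are shared, so the numbers are not taken to pair the mice. Each member has 1 probe, so the mean of a gene's probes gave the same values. Low signal limits Lef1, Tnnt1 and Ramp3.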

Other observations

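Further tissues at the border of the striatum were measured as well. Transthyretin, Ttr, the main secreted protein of the choroid plexus, stood at 10.64 in HD_miR196a mouse 1, while the remaining 4 animals had 7.09 to 7.70. No other choroid plexus gene stood apart in that mouse as Ttr did. Clic6 was at 10.46 there and at 9.62 to 10.67 elsewhere, and Folr1 stayed dim at 5.25 to 5.58. Some dim genes were highest in that mouse by small margins. Only 2 of the 9 measured genes had a mean above the olfactory receptor gauge, so most could show little. Myelin genes, measured for 9 of 10 listed, had list means of 12.44, 12.11 and 11.81 in HD_miR196a mice and 12.01 and 11.62 in HD mice. Like Tcf7l2 and Lhx6, the list was highest in HD_miR196a mouse 1 and lowest in HD mouse 2. Its part in the members' values was not tested. All 9 had a higher mean in HD_miR196a mice, against 48.9% of named genes, with a median difference of 0.28. None was called. The groups did not overlap for 2, both higher in HD_miR196a mice, against 9.96% of all probes in that direction. These were the myelin basic protein gene Mbp on its brighter probe and Ermn, the latter chosen after its values were seen. Vasopressin, Avp, was highest in HD_miR196a mouse 3, at 10.51 against 7.18 to 9.30 in the others, and so did not share the order of oxytocin.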
